A study of Homo sapiens and Mus musculus with 6 samples.

Results

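The 6 Iroquois homeobox genes Irx1 to Irx6 were examined as promoter baits in mouse embryonic stem cells (mESCs). They were found by symbol in the list of mESC calls, where each of the 6 genes named 1 bait fragment among 16265 baits with a call, and 17014 symbols were named in all. A call was kept if a member stood at either end, which gave 65 of 101841 calls. Promoter Capture Hi-C (CHi-C) crosslinks chromatin, cuts it at HindIII sites, ligates the ends and enriches the library for fragments that carry promoters, the baits. It was carried out on 2 biological replicates of the mouse embryonic stem cell line J1 of strain 129S4/SvJae, which was grown on irradiated embryonic fibroblast feeders that were depleted at harvest, and on 3 biological replicates of GM12878, a human B-lymphoblastoid cell line. A single Hi-C library of the mESCs was made without capture. No cell was treated, and a call is a bait and an other end with a CHiCAGO score of at least 5, a soft-thresholded negative logarithm of a distance-weighted p-value. A pair of 2 baits can be called from each end and then stands as 2 calls, so the 65 Irx calls are 55 distinct pairs and the whole list holds 94150. Each cell type has 1 list of calls, made by the authors on its pooled replicates, so the spread between replicates is unknown and no difference was tested. The 95% intervals below (Wilson) cover counting error only, and adjacent fragments often give calls that depend on each other.

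Irx proteins are transcription factors with a homeodomain of the TALE class, named after the Iroquois genes of the fly, and they pattern the nervous system, heart, limb and other organs. In mammals the genes lie in 2 clusters, Irx1, Irx2 and Irx4 in one and Irx3, Irx5 and Irx6 in the other, separated by long stretches of noncoding DNA. In pluripotent cells, promoters of developmental transcription factors such as these are known to be rich in CpG, mostly silent and bound by Polycomb complexes. Contacts among such promoters are known from chromosome conformation studies of these cells.

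In the mouse (mm9), Irx1, Irx2 and Irx4 lie on chromosome 13. The Irx1 bait spans chr13:72099210-72103573 (4364 bp), the Irx2 bait chr13:72764992-72767080 (2089 bp) and the Irx4 bait chr13:73390337-73403750 (13414 bp). Each overlaps an exon and the transcription start of its gene. The calls described below join whole HindIII fragments and do not place a contact within the promoter. The 150 bases before these starts are shown as the promoter sequence on each bait. They were read from mm9, are written 5′ to 3′ on the strand of the gene, and have every CpG in capitals.
Irx1, chr13:72101172-72101321, minus strand: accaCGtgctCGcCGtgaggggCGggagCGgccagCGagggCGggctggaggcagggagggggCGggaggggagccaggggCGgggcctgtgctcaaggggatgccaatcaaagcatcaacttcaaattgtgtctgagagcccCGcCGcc
Irx2, chr13:72766095-72766244, plus strand: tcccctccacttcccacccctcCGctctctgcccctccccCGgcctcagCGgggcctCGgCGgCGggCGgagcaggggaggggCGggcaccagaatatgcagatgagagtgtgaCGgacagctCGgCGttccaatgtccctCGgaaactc
Irx4, chr13:73397795-73397944, plus strand: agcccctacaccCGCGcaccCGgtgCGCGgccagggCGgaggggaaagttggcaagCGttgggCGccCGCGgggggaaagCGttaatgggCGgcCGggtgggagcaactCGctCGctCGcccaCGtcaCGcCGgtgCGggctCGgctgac

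These windows hold 11, 12 and 21 CpG dinucleotides and have a GC content of 70.0%, 69.3% and 74.0%. They overlap no annotated exon. The median over 22377 windows of this kind before protein-coding genes was 6 CpG.

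Irx3, Irx5 and Irx6 lie on chromosome 8. The Irx3 bait spans chr8:94322071-94328177 (6107 bp), the Irx5 bait chr8:94880498-94882446 (1949 bp) and the Irx6 bait chr8:95193870-95200874 (7005 bp), and each overlaps an exon and the start of its gene. The Irx3 bait also overlaps an exon and a start of the gene D230002A01Rik, and the fragment next to the Irx5 bait, chr8:94879106-94880497, is a bait of its own named after 4933436C20Rik. The windows before the starts of Irx3, Irx5 and Irx6 hold 9, 14 and 3 CpG, so of the 6 members only Irx6 lay below the median.

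Over the whole bait fragment, CpG density was 86.2 per kb at Irx5, 85.2 at Irx2, 56.5 at Irx3, 47.7 at Irx1, 25.8 at Irx4 and 24.8 at Irx6, and the median of all baits with a call was 17.0. Of all baits, 99.5% had a lower density than Irx5 and 72.4% a lower density than Irx6. The motif GGGCGG, on either strand, was found 4 times in the Irx1 window, 2 times at Irx2 and 2 times at Irx4, and at least once in 35.4% of all windows. CCAAT was found at Irx1 and Irx2 and in 26.1% of windows. TATAAA, present in 7.88% of windows, and ACANNTGT, the core of the site that Irx proteins are known to bind, present in 2.98%, had no match in the 6 windows. Both strands were searched, and none of these letter strings contains another.

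The calls of the Irx promoters spanned long distances. Of the 65 calls, 54 joined fragments over 500 kb apart, or 83.1% (72.2 to 90.3%), whereas 9.0% of all mESC calls did. With each pair counted once the values were 45 of 55, or 81.8% (69.7 to 89.8%), and 8.71%. The median distance of the Irx calls was 629 kb, and that of all cis-chromosomal calls was 139 kb. Only 2 Irx calls were shorter than 200 kb, a class that held 63.3% of all calls. No Irx call joined 2 chromosomes, which allows a share of up to 4.62%, and the share in the whole list was 0.569%.

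**Figure D1:**
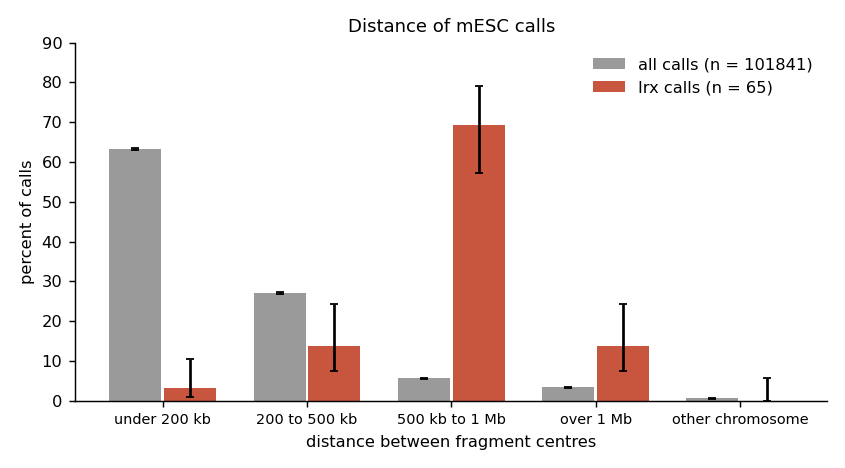
Percent of mESC calls (vertical axis) in 5 classes of distance between fragment centres (horizontal axis), for all 101841 calls in grey and the 65 Irx calls in red, with Wilson 95% intervals. Irx calls peak at 500 kb to 1 Mb with 45 calls, whereas most calls of the list lie under 200 kb.

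The 2 clusters gave nearly the same number of calls, 32 for Irx1, Irx2 and Irx4 and 33 for Irx3, Irx5 and Irx6. Their median distances were 665 and 555 kb, close to the spacing of the genes, and their median read counts were 7.5 and 10. The median over all mESC calls was 13 reads. A read count is here the authors' mean over replicates, weighted and rounded. Of the 65 calls, 57 were made by the Irx baits and 8 by other baits that reached an Irx fragment. Irx3 made 15 calls, Irx2 12, Irx4 and Irx5 8 each, and Irx1 and Irx6 7 each, whereas the median bait of the list made 3. Between 70.9% (Irx1 and Irx6) and 89.7% (Irx3) of all baits made fewer calls.

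The calls of the outer genes mostly pointed into the clusters. All 7 calls of Irx1, the first gene of its cluster, went towards Irx2. All 8 calls of Irx4 and all 7 of Irx6, the last genes of theirs, went back towards the other members. Irx2, the middle gene, made 6 calls in each direction along the chromosome. Of its 12 calls, 4 went to promoters over 5 Mb away, outside the cluster, and another spanned only 8.03 kb. Irx5 made 6 calls on the side of Irx3 and 2 on the side of Irx6, among them the call to Slc6a2 at 602 kb, which lies past Irx6. Irx3 made 14 towards Irx5 and Irx6 and 1 the other way.

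**Figure D2:**
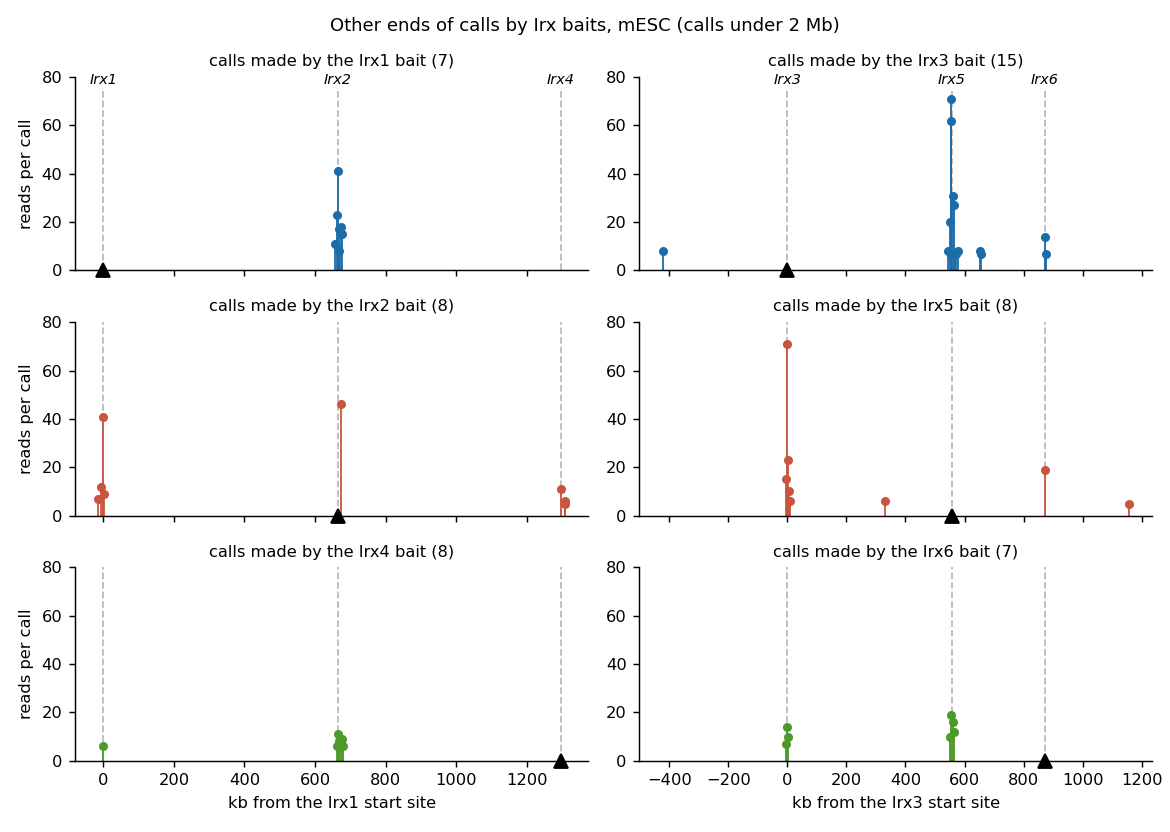
Each panel shows the calls under 2 Mb made by 1 Irx bait in mESCs (triangle), with the position of the other end in kb from the first start site of the cluster on the horizontal axis and the reads per call on the vertical axis. Dashed lines mark the start sites, and most calls stand within 25 kb of the start site of another member.

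Every pair of promoters within a cluster was called, 3 of 3 on chromosome 13 and 3 of 3 on chromosome 8. Among all pairs of mESC baits with a call on one chromosome, 9.82% of those 250 to 500 kb apart were called, 2.8% at 500 to 750 kb, 1.13% at 750 to 1000 kb and 0.416% at 1000 to 1500 kb. Pairs among 339 promoters of other developmental genes (Hox, other homeobox and other developmental factors, and signalling genes) were called in 5 of 10, 7 of 17, 8 of 22 and 8 of 32 cases in these classes, or 50.0%, 41.2%, 36.4% and 25.0%. The Irx pairs number 1, 3, 1 and 1 in the 4 classes, too few to set their share apart from that of the developmental promoters.

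For the 6 pairs, read counts were set beside those of other called pairs of 2 baits at like distance, since ligation products with 2 captured ends are recovered more often than those with 1. Irx3 and Irx5 gave the strongest pair. Their baits lay 556 kb apart and were joined by 71 reads, with a score of 95.2 from Irx3 and 146 from Irx5. Of the 1464 called promoter pairs at 500 to 750 kb, 99.9% had fewer reads, and the median pair had 7. By score the pair stood in place 32 of 94150 called pairs at any distance, and in place 8 of 8199 over 500 kb.

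Irx1 and Irx2 gave the strongest pair of the other cluster. Their baits lay 665 kb apart and were joined by 41 reads, with scores of 54.1 from Irx1 and 72.1 from Irx2. Of the called promoter pairs in the same distance class, 99.2% had fewer reads, and the pair stood in place 36 by score among those over 500 kb.

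The last gene of each cluster gave weaker pairs. Irx5 and Irx6, 316 kb apart, were joined by 19 reads with scores of 23.7 and 9.08, and 97.0% of the called promoter pairs of their class had fewer reads. Irx3 and Irx6, 872 kb apart, were joined by 14 reads with scores of 14.01 and 11.0. Irx2 and Irx4, 631 kb apart, were joined by 11 reads with scores of 13.3 and 11.3. Irx3 with Irx6 stood above 94.7% of the called promoter pairs of its class, and Irx2 with Irx4 above 86.6%.

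Irx1 and Irx4, the outermost genes of their cluster at 1296 kb, gave the weakest pair. It rested on 6 reads, was called from the Irx4 bait alone with a score of 6.18, and stood above 47.0% of the 364 called promoter pairs at 1000 to 1500 kb, whose median was 6 reads. The other 5 pairs were called from both ends. Within each cluster, the pair of the first and second gene thus had the most reads and every pair with the last gene fewer. Irx5 and Irx6 were nearer than Irx3 and Irx5 and had fewer reads. The baits differ in length, and the paper names uneven capture efficiency as a source of bias. The cause of the differences in reads was not tested.

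**Figure D3:**
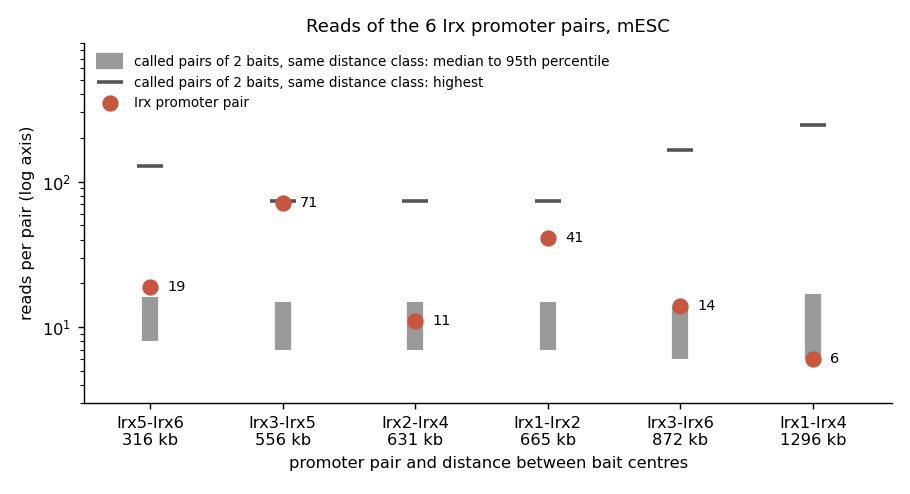
Reads of the 6 Irx promoter pairs in mESCs (red points, log axis), ordered by the distance between bait centres, beside all called pairs of 2 baits in the same distance class (grey bars from the median to the 95th percentile, dashes for the highest). The pairs Irx3-Irx5 with 71 and Irx1-Irx2 with 41 reads stand far above the bars, and Irx1-Irx4 with 6 reads at the lower edge.

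Around most of the contacted promoters, neighbouring fragments were called as well as the bait fragment of the gene. Of the 57 calls made by Irx baits, 47 had their other end within 25 kb of the start of a second member, or 82.5% (70.6 to 90.2%), and 37 within 10 kb, or 64.9% (51.9 to 76.0%). By the wider measure of any listed bait near the other end, the shares among all cis-chromosomal calls over 100 kb were 77.2% within 25 kb and 59.8% within 10 kb. All calls of Irx1, Irx4 and Irx6 were of this kind, with 12 of 15 for Irx3, 6 of 8 for Irx5 and 7 of 12 for Irx2. Of the 12 ordered pairs of a bait and a second member of its cluster, 11 had a called fragment in this window, 9 of them 2 or more and 2 the bait fragment of that member alone. In all 11 this bait fragment had the most reads. It is itself captured, whereas its called neighbours, other than the 4933436C20Rik bait, are not listed as baits. Products with 2 captured ends are recovered more often, and the part of capture in the shape of the profiles was not tested. By score, which takes account of baited other ends, the bait fragment led in 10 of the 11, and from Irx6 the next fragment at Irx5 scored 9.88 against 9.08.

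From Irx3, 10 of the 20 fragments around Irx5 were called, over 36.1 kb. The reads were 8, 20 and 7 on 3 fragments upstream, 62 on the 4933436C20Rik bait, 71 on the Irx5 bait, 31 on the next fragment, which overlaps an Irx5 exon (chr8:94882447-94889218), and 27, 7, 7 and 8 on 4 fragments downstream. The fragments with 62 and 71 reads are both listed as baits and the other 8 are not. From Irx5, 5 of 13 fragments around Irx3 were called over 17.4 kb, with 71 reads on the Irx3 bait, 15 on the fragment downstream and 23, 10 and 6 on 3 fragments upstream of the Irx3 start.

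From Irx1, 7 of 11 fragments around Irx2 were called over 24.5 kb, with 41 reads on the Irx2 bait and 8 to 23 on the others. From Irx2, 4 of 13 fragments around Irx1 were called over 18.6 kb, with 41 reads on the Irx1 bait and 7 to 12 on the others. Irx4 called 7 fragments around Irx2 over 21.1 kb, on 6 to 11 reads, a nearly flat profile in which the Irx2 bait held 20.8% of the reads of the block. Irx1 called none of the 16 fragments around Irx4.

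**Figure D4:**
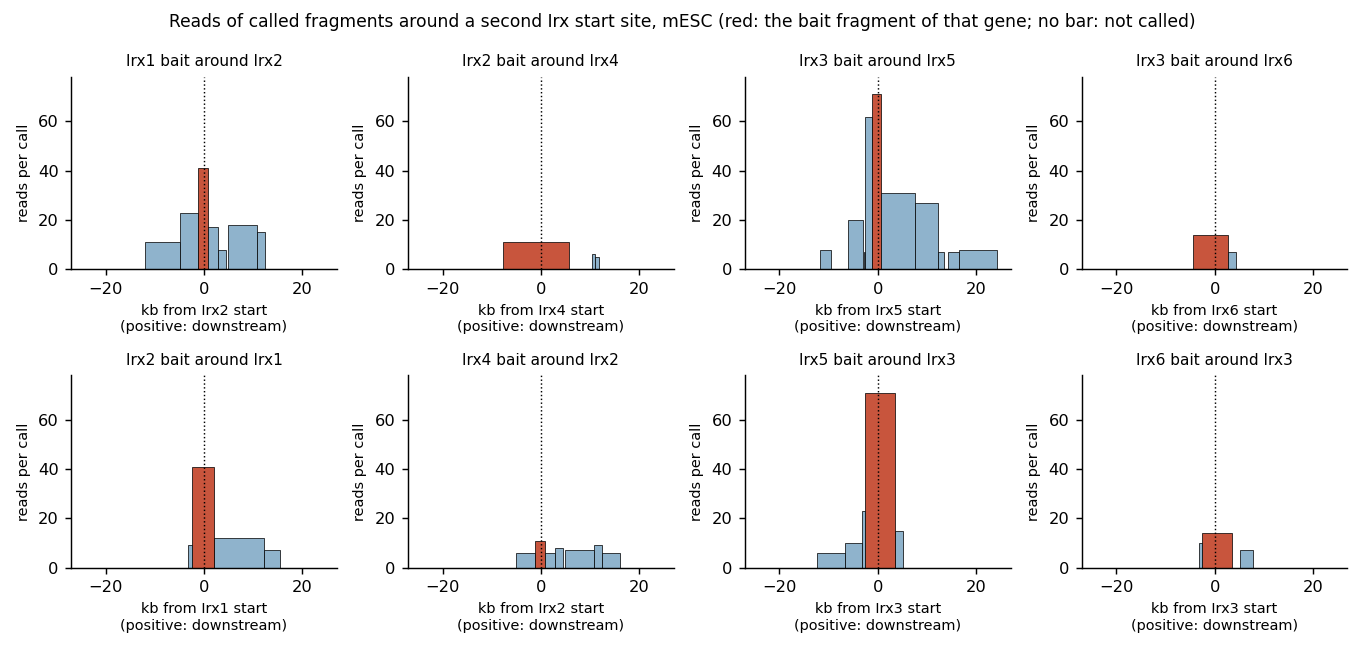
Reads per called fragment (vertical axis) against the distance from the start of the contacted gene in kb (horizontal axis, positive downstream), for 8 pairs of a bait and a target in mESCs. Bars have the width of the fragment, red marks the bait fragment of the target gene, and fragments with no bar were not called; the red bar is the tallest in every panel, and besides it only the 62-read fragment at Irx5 is listed as a bait.

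The 6 Irx baits reached 42 distinct fragments, and 14 of these were reached by 2 or more of them. The fragment chr13:72771138-72776996, which overlaps an Irx2 exon, was the only one called from all 3 baits of a cluster, on 18 reads from Irx1, 46 from Irx2 and 7 from Irx4. The call from Irx2 spanned 8.03 kb and had a score of 5.89 on its 46 reads; the score sets reads against the number expected at the distance. Measured by shared other ends (Jaccard index, the number shared over the number reached by either bait), the bait most like Irx1 among the 219 compared on chromosome 13 was Irx4, with 6 shared fragments and an index of 0.667, and the reverse held for Irx4. The bait most like Irx3 was Irx6 (4 shared, 0.222) and the reverse held for Irx6, so in both clusters the outer genes shared the fragments around the middle gene. Irx2 had the forkhead gene Foxf2 and the transcript uce, each with 2 shared fragments and 0.118, and then Foxq1 (0.111). The bait most like Irx5 among the 433 compared on chromosome 8 was its neighbour 4933436C20Rik, with 6 shared and 0.462.

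4933436C20Rik lies beside Irx5 on the opposite strand and its bait made 11 calls. With Irx3 it shared 62 reads, with scores of 78.2 from Irx3 and 81.7 from its own side. A further 6 of its calls, on 8 to 29 reads, fell on fragments around Irx3, and it reached Irx6 on 11 reads with a score of 5.26. Reads on this fragment and on the adjoining Irx5 bait cannot be assigned to one start or the other by these calls.

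A few calls lay outside the Irx starts. Irx3 reached a fragment inside the first intron of Fto, chr8:93902106-93903164, 422 kb away, on 8 reads with a score of 5.89. Fto codes for an RNA demethylase, and its introns are known from other work to hold elements that contact Irx3. This was the only call of an Irx bait into Fto, and it was among the weaker calls of Irx3, whose scores ranged from 5.54 to 95.2.

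Irx3 also reached 2 neighbouring fragments between Irx5 and Irx6, chr8:94976541-94980723 and chr8:94980724-94984166, on 8 and 7 reads. Irx5 reached an unannotated fragment between Irx3 and itself, chr8:94655823-94659590, 224 kb away on 6 reads (score 5.8). It also reached the start of Slc6a2, the noradrenaline transporter gene, 602 kb away on 5 reads (score 5.09), which was listed as a contacted fragment and not as a bait with calls. The lysophosphatidylcholine acyltransferase genes Lpcat1 and Lpcat2, neighbours of the 2 clusters, each reached the nearest member. Lpcat1 called Irx4 at 210 kb on 8 reads (score 5.39) and Lpcat2 called Irx6 at 181 kb on 7 reads (score 8.5), and neither was called back.

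Irx2 was the only member with calls over 2 Mb. It was called with Nr2f1, a nuclear receptor gene, at 5.57 Mb on 6 reads, with Otp, a homeobox gene of the hypothalamus, at 22.9 Mb on 4 reads, with Tcfap2a, the gene of the AP-2 alpha factor, at 31.9 Mb on 5 reads, and with Nrn1, the gene of the neurite protein neuritin, at 35.9 Mb on 4 reads. All 4 pairs were called from both ends. The scores were 12.8 and 11.1 with Nr2f1, 7.64 and 8.07 with Otp, 13.6 and 11.9 with Tcfap2a, and 8.7 and 6.81 with Nrn1.

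Of all baits, 1.57% had a called promoter over 5 Mb away on their chromosome, and of the developmental promoters 28.6% had one. Among the partners themselves, Nrn1 and Tcfap2a were called at 4.00 Mb on 24 reads and Tcfap2a and Otp at 54.8 Mb on 4 reads, whereas the remaining 4 pairs were not called. Chromosome 13 had 21 called promoter pairs over 5 Mb, 9 of them between developmental promoters, and chromosome 8 had 4, none of that kind. No call of Irx3, Irx5 or Irx6 exceeded 1 Mb.

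The Irx baits had 7 baited partners besides each other, and 3 of these, Nr2f1, Otp and Tcfap2a, were promoters of the developmental lists. This was 42.9% (15.8 to 75.0%), whereas such promoters made up 2.08% of all baits. Of the promoters reached in bait-to-bait calls they made up 5.01%, counted by call and with Irx promoters included, whereas the 7 are distinct fragments. The 3 developmental partners all belonged to Irx2, on 4 to 6 reads, and the 7 include Lpcat1 and Lpcat2, which no Irx bait called. The share of 42.9% therefore describes Irx2 rather than the Irx baits as a set. On chromosome 13, Irx promoters reached 1 of 5 baits of other homeobox genes, 2 of 9 of other developmental factors and 0 of 3 of signalling genes. On chromosome 8 they reached 0 of 5, 0 of 4 and 0 of 2, and 0 of 1 pluripotency gene. Of the other baits within 2 Mb of a member, Irx baits called 0 of 27 on chromosome 13 and 1 of 31 on chromosome 8 (4933436C20Rik), and 1 more on each chromosome (Lpcat1 and Lpcat2) called a member. Of all pairs of baits on 1 chromosome, 9.82% were called at 250 to 500 kb, 2.8% at 500 to 750 kb, 1.13% at 750 to 1000 kb and 0.416% at 1000 to 1500 kb. These shares stop at 1500 kb, whereas the developmental promoters reached lay 5.57 Mb or more away, so they are no measure for the gene lists. No share over the whole list was computed for these sets of baits, so the counts were not read as high or low. Bait-to-bait calls were 24 of the 65, or 36.9% (26.2 to 49.1%), near the 35.0% of the whole list.

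No call joined the 2 clusters, with 0 of 9 promoter pairs. Of all pairs of baits on different chromosomes 3.85e-05% were called, a share too low for 9 pairs to show a difference from it. The Hi-C list held no bin pair of 1 Mb between the clusters either.

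The Hi-C library gave a view of the same contacts without capture. The paper describes it as a pre-capture dataset, so it may hold ligation products also present in the CHi-C libraries. It was not taken as an independent experiment. A call counted as found by Hi-C if its fragment centres lay in the 2 bins of a listed pair with an FDR under 0.05. Of the 56 Irx calls under 1 Mb, 29 lay in a pair of 25-kb bins, or 51.8% (39.0 to 64.3%), and of all mESC calls under 1 Mb 11.6% did. At 500 kb to 1 Mb the values were 29 of 45, or 64.4% (49.8 to 76.8%), and 13.5%. By cluster the values were 13 of 23 (56.5%, 36.8 to 74.4%) for Irx1, Irx2 and Irx4 and 16 of 33 (48.5%, 32.5 to 64.8%) for Irx3, Irx5 and Irx6. Many of these calls lay in the same overlapping bin pairs, and some pairs were counted from both ends. The calls are thus not independent units, and these intervals are too narrow to compare the clusters or to set them against the whole list.

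The bins of Irx1 and Irx2 were joined by 41 Hi-C read pairs where 1.13 were expected from coverage and distance, a ratio of 36.2. Of the 663 listed bin pairs with an FDR under 0.05 at 500 kb or more, 98.6% had a lower ratio, and the median ratio was 6.63. A second, overlapping bin pair of the same genes had 13 against 1.81. For Irx3 and Irx5, 2 overlapping bin pairs had 70 against 3.75 and 56 against 4.20 read pairs, ratios of 18.7 and 13.3.

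The weaker promoter pairs were less clear in Hi-C. The bin pair of Irx2 and Irx4 had 8 read pairs against 0.967 with an FDR of 0.235, whereas the pair of the Irx2 bin with a bin that begins just past the Irx4 start had 24 against 2.75 and a listed FDR of 0. No listed bin pair joined Irx6 with Irx3 or Irx5. None of the 9 Irx calls over 1 Mb, 8 of them between Irx2 and its 4 distant partners and 1 between Irx4 and Irx1, lay in a 1-Mb bin pair, and of all calls over 1 Mb or between chromosomes 57.2% did. That share includes calls between chromosomes, whereas the 9 Irx calls were all cis-chromosomal, so the sets are not alike. The paper reports a larger share for its longest cis-chromosomal calls than for calls between chromosomes. The 9 Irx calls rested on 4 to 6 reads each, and the Hi-C library had no replicate.

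**Figure D5:**
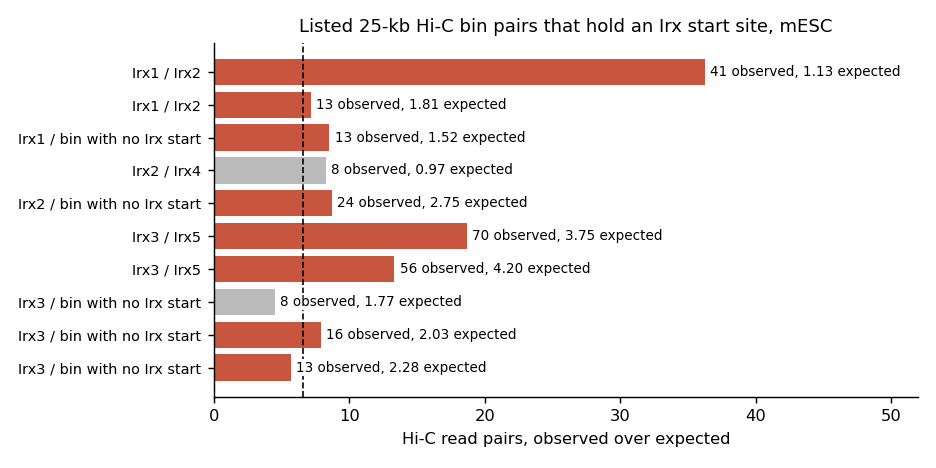
Observed over expected Hi-C read pairs (horizontal axis) for each listed 25-kb bin pair that holds an Irx call in mESCs, named by the Irx starts in its 2 bins, with the dashed line at the median ratio of 6.63 of bin pairs at 500 kb or more. Red bars have an FDR under 0.05 and grey bars do not; the first Irx1 / Irx2 bin pair has the highest ratio, 36.2.

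In GM12878 cells, a B-cell line, the IRX genes gave 3 of 92929 calls. The orthologues lie on chromosomes 5 and 16 of hg19, at distances between starts of 393 kb (IRX5 and IRX6) to 1709 kb (IRX1 and IRX4), against 316 to 1297 kb in the mouse. The fragments with the starts of IRX1, IRX2, IRX3 and IRX6 did not occur in the list at either end, which may mean that they had no call or that they were not captured, and the list does not tell these apart. IRX4 and IRX5 each named 1 bait, chr5:1875730-1892226, shared with CTD-2194D22.3 and CTD-2194D22.4, and chr16:54961772-54965465, shared with the noncoding gene CRNDE.

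The IRX4 bait reached the fragment with the starts of MRPL36, a gene of the mitochondrial ribosome, and NDUFS6, a gene of respiratory complex I, at 85.2 kb on 20 reads (score 10.6). The IRX5 bait reached a fragment inside intron 8 of FTO, chr16:53983172-53985260, at 979 kb on 7 reads (score 5.33). The bait of RNU6-1153P, which lies in the RBL2 gene, reached IRX5 at 1488 kb on 3 reads (score 6.36). No call joined 2 IRX promoters. IRX4 and IRX5, the only members listed, belong to different clusters, and it is unknown whether the others were captured, so this absence shows little.

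Of 14 gene pairs of an Irx bait with another bait in mESCs and 3 in GM12878 cells, matched by symbol, 0 were shared, 0.0% of either set. This count can show little, because only IRX4 and IRX5 were named in the human list and Mrpl36 named no mouse fragment. The share of gene pairs common to both lists over all baits was not computed. In the 2 Mb around the clusters, mESCs had 258 calls from 30 baits on chromosome 13 and 121 from 33 on chromosome 8, and GM12878 cells had 77 from 20 and 219 from 33 on the human chromosomes 5 and 16. From 100 kb before the first to 100 kb after the last start of a cluster, mESCs had 28 calls from 4 baits and 42 from 5, and GM12878 cells had 5 calls from 2 baits and 1 from 1. Promoter pairs of the developmental lists (287 baits) were called in 0 of 10, 0 of 9, 0 of 21 and 0 of 43 cases in the 4 distance classes in GM12878 cells, and all promoter pairs were called at 11.9%, 3.37%, 0.928% and 0.238%. At these shares 1.79 of the 83 developmental pairs would be called, so their number is too small to show a difference from all promoter pairs of GM12878 cells. In mESCs the developmental pairs were called at 50.0%, 41.2%, 36.4% and 25.0% in these classes, and the difference between the 2 lists was not tested. Species, cell type and depth differ together between the 2 lists and cannot be told apart.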

How the data were processed

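Promoter CHi-C calls of mESCs (2 replicates) and GM12878 cells (3 replicates) and Hi-C bin pairs of mESCs (1 library) were analysed. The authors mapped the reads to mm9 or hg19 with HiCUP (Bowtie 1.1.0, per the submitters' processing notes) and called interactions with CHiCAGO jointly on all replicates. The deposited score is CHiCAGO's, and the read count listed with each call by the authors is a rounded and size-weighted average of the replicates, which was taken as a score and not as a raw count. Pairs scoring 5 or more are listed. Hi-C bin pairs were called by the authors with HOMER 4.7: the count of read pairs per bin pair was deposited without normalisation, the expected number beside it is HOMER's, and the deposited FDR is a p-value adjusted by HOMER. Bins of 25 kb cover pairs under 1 Mb and bins of 1 Mb longer ones, and bins may overlap. The raw depth of each library is not in these lists, and the number of calls sets the precision.

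Transcript names in the lists were split at semicolons, commas and bars, since the mouse list joins names by commas, and a transcript number at the end was removed. Distances are between fragment centres. A fragment counted as baited if it stood at the bait end of any call, so captured fragments with no call were not counted. Every listed fragment on the 4 chromosomes of the Irx genes was a fragment of the HindIII digest of mm9 or hg19 (100% of each). Starts, exons and introns come from the GENCODE annotation of the same build. Shares have Wilson 95% intervals, and a count of 0 allows up to 3 counts of the total. The scripts were tested on simulated calls. Python 3.11.15, pandas 2.3.3, NumPy 2.4.6 and SciPy 1.17.1 were used.

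The members, the gene lists and the rules were chosen with earlier results of these data known. Named are the 6 members and symbols on their baits, for each bait the 3 calls with the highest score and the longest, every partner in a gene list or reached by more than 1 member, and up to 3 baits most alike in other ends among those with at least 5 calls on the chromosome; other fragments and genes, among them Lpcat1, Lpcat2, Slc6a2, Nrn1 and Fto, were named after their values were seen. The alternatives were a score of at least 10, at least 10 reads, the browser list, where a pair stands once, the bait end alone, distances between nearest ends, another definition of a baited fragment, and Hi-C pairs with an FDR under 0.01 or all listed pairs.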

Additional observations from a re-analysis of the deposited data

How the results depend on the processing

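Over 12 results and 45 alternatives, 32 values stayed within 1.5 times the count, or within the interval of the share or median, and 13 moved; the cause was not tested, beyond the smaller number of calls left. Of the 65 Irx calls, 29 had a score of at least 10 and 30 had at least 10 reads. The shares of all mESC calls that pass these limits were not computed. The median score was 9.08 for the Irx calls and 6.62 for all mESC calls, and the median reads were 8 and 13. With at least 10 reads the median distance was 560 kb, and developmental promoters were 0.0% of the partners (0 of 1). With a score of at least 10, bait-to-bait calls were 51.7% and calls under 1 Mb in Hi-C bin pairs 76.0%, and with the browser list, which gives a pair once, bait-to-bait calls were 25.5%. Counting every listed Hi-C bin pair gave 66.1%. The calls of GM12878 cells fell to 1 under either limit. Calls near another member were 64.9% within 10 kb, 92.3% at a score of at least 10 and 96.4% with at least 10 reads, alternatives that were chosen after seeing the data, as was the older spelling of Tfap2a, without which 2 of 7 partners (28.6%) were developmental. The pairs called within the Irx1, Irx2 and Irx4 cluster were 2 of 3 at a score of at least 10 or with at least 10 reads, where Irx1 with Irx4 was lost, and 3 of 3 in the other cluster in every setting. No Irx call over 1 Mb had 10 reads, so that setting gave no Hi-C share. No paired analysis was possible because the authors called interactions on pooled replicates, and for the same reason no replicate could be left out.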
